A study of Mus musculus with 16 samples.

Results

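The cadherin superfamily was taken here as the 49 genes, of 35983 in the deposited expression table, whose symbols name a classical or other cadherin (*Cdh*), an unclustered protocadherin (*Pcdh* with a number), a FAT or Dachsous protein, a CELSR protein or a cadherin-related protein (*Cdhr*). The choice went by gene symbol alone and used no measured value. Its members are grouped below into 10 classes by structure and known role.

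Cadherins are calcium-dependent adhesion proteins of the cell surface, and the classical ones bind the same or a like cadherin on a neighbouring cell and reach the actin cytoskeleton through catenins. Large relatives such as FAT and Dachsous proteins bind each other across cell borders and take part in planar polarity, the shared orientation of cells in a sheet. In the testis, cadherins hold Sertoli cells, which line and shape the seminiferous tubules, to each other and to germ cells, and other members of the family mark the vessels, stroma and ducts around the tubules.

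mRNA was sequenced from whole testes of mice on a mixed 129Sv and C57Bl/6J background, in 4 groups of 4 samples. *Dhh-Cre* mutants at P3 (postnatal day 3) were *Lrh1* flox/flox with *Dhh-Cre*, which acts in Sertoli cells from fetal stages and is also known from Schwann cells, and their controls were *Lrh1* flox/flox without Cre. *Nanos3-Cre* mutants at P1 were *Lrh1* flox/- with *Nanos3-Cre*, which acts in fetal germ cells, and their controls were *Lrh1* flox/- without Cre, so every P1 testis carried 1 null allele. The deposited values are the authors' mean of each group in FPKM, fragment counts set relative to gene length and to the size of the library, without SD or values per sample. No difference below could therefore be set against the spread between replicates, no test was run, and the depth of each sample is unknown, so "higher" and "lower" describe 2 group means and nothing more.

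*Nr5a2*, the gene of LRH1, had means of 0.609 FPKM in *Dhh-Cre* mutants and 1.15 FPKM in controls at P3, and of 0.491 FPKM in *Nanos3-Cre* mutants and 0.764 FPKM in controls at P1. A ratio of means was taken as log2 of mutant over control after adding 0.1 FPKM to each, for genes whose 2 means averaged 0.5 FPKM or more, which held for 16923 genes at P3 and 16121 at P1. The median of this log2 ratio over all such genes was 0.00 at P3 and 0.02 at P1. The P1 groups differed less than the P3 groups. The central 95% of all genes lay between -0.75 and 0.65 at P1, against -1.20 and 1.24 at P3, and genes between 0.5 and 2 FPKM spread most at both ages.

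At P3 the cadherins split by direction. *Cdh23*, *Fat1*, *Cdh2*, *Cdh3*, *Celsr1* and *Cdh17* had lower means in *Dhh-Cre* mutants than in controls, whereas *Cdh16*, *Pcdh20*, *Fat4*, *Pcdh9*, *Cdh1* and most protocadherins had higher ones. Of the 49 members, 28 reached the minimum level. Of these, 20 had a higher mean in mutants (71.4%, against 50.2% of all 16923 genes) and 8 a lower one (49.8% of all genes were lower), and their median log2 ratio was 0.44, against 0.00 for all genes. *Cdh6* and *Dchs2* reached the minimum through the mutants alone, and *Cdh17* through the controls alone (0.280 FPKM in mutants and 0.721 FPKM in controls). With 0.5 FPKM asked of the controls alone, 18 of 26 members were higher. Their median log2 ratio was then 0.42, against -0.02 for all genes. At least 2-fold lower were *Cdh23* and *Cdh17*, 2 of 28 members, where 3.58% of all genes lay that far down. At least 2-fold higher were *Cdh16* and *Pcdh20*, again 2 of 28, where 4.75% of all genes lay that far up.

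**Figure D1:**
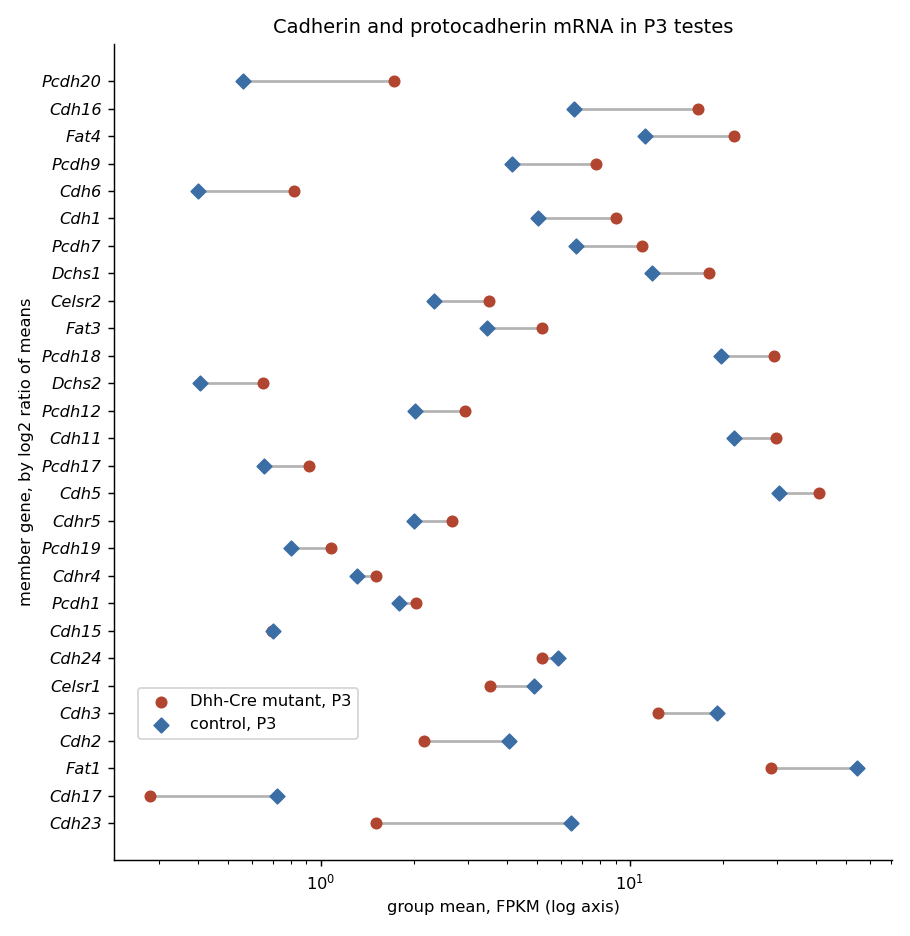
Mean FPKM (log axis) of the 28 members that reached the minimum level at P3, in *Dhh-Cre* mutants (circles) and controls (diamonds), with 1 gene per line ordered by the log2 ratio of the means. The longest gaps are those of *Cdh23* (1.51 and 6.46 FPKM) at the bottom and *Pcdh20* (1.73 and 0.563 FPKM) at the top, and no error can be drawn because the values are group means.

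*Cdh23* encodes a very large cadherin of the inner ear, where it joins the protocadherin PCDH15 to form the tip links of hair cells. It is on chromosome 10 of GRCm38 (60302748 to 60696490, minus strand). Its mean was 1.51 FPKM in *Dhh-Cre* mutants and 6.46 FPKM in controls at P3, a plain ratio of 4.28-fold lower and a log2 ratio of -2.03 with 0.1 FPKM added. Only 83 of 16923 genes had a lower ratio. The paper, which tested the samples of these groups, lists *Cdh23* among its downregulated genes in *Dhh-Cre* mutants. At P1 the means were 2.34 FPKM in *Nanos3-Cre* mutants and 2.17 FPKM in controls, so the level in *Dhh-Cre* mutants at P3 was below that of all 3 other groups. Its tip link partner *Pcdh15* was at 0.034 FPKM in *Dhh-Cre* mutants and 0.053 FPKM in controls, and it stayed at or under 0.053 FPKM in every group.

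The sequence before the annotated start of *Cdh23* is shown because its ratio was the lowest of the family, and that of *Pcdh20* because its ratio was the highest with 0.1 FPKM added. The *Fat1* window is shown for a match to the site of the NR5A receptors LRH1 and SF1. Each run is 5′ to 3′ on the strand of the gene, from 250 bases before the RefSeq start to 30 bases after it, and capitals mark a match to CAAGGTCA or CAAGGCCA on either strand.
*Cdh23* (chr10:60696461-60696740, minus strand, GRCm38.p6): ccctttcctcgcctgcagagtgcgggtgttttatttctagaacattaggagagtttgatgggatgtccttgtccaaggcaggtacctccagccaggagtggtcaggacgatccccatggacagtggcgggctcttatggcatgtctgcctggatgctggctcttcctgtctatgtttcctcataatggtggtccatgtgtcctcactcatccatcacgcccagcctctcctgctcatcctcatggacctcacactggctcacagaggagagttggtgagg
*Pcdh20* (chr14:88471367-88471646, minus strand, GRCm38.p6): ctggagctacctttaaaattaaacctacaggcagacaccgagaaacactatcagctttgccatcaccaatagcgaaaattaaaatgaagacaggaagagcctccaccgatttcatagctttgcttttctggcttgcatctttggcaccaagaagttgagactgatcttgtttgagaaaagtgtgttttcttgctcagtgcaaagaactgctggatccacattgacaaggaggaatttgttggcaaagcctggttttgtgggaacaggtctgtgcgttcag
*Fat1* (chr8:44949958-44950237, plus strand, GRCm38.p6): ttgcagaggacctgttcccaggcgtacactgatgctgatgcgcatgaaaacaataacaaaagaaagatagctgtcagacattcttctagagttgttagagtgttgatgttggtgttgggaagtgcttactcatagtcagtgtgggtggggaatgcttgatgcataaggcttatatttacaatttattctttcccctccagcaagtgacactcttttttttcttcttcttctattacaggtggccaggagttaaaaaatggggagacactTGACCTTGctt

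The capitals in *Fat1* are CAAGGTCA read on the opposite strand, at bases 20 to 27 after the start. That start lies 14761 bases inside the gene as GENCODE M21 draws it, so the window is not the region before the longest *Fat1* transcript. Whether this window acts as a promoter was not tested. The RefSeq starts of *Cdh23* and *Pcdh20* coincide with the GENCODE starts of their genes, and their windows hold no match. RefSeq windows were found by symbol for 34 of the 49 members, and windows of 300 bases held a match in 2 of these, *Fat1* and the barely expressed *Cdh18*. That is 5.88% of the members with a window, against 4.48% of the 27025 genes with one. A match of letters is a description and not a binding site. No window was found for *Cdh1*, *Cdh2*, *Cdh3*, *Cdh4*, *Cdh5*, *Cdh11*, *Cdh13*, *Cdh16*, *Cdh17*, *Cdh19*, *Celsr1*, *Dchs1*, *Pcdh1*, *Pcdh11x* and *Pcdh12*.

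Among other genes were those whose products work with CDH23 in hair cells. In a list of 18 genes of tip links and of the like adhesion of intestinal microvilli, 7 reached the minimum level at P3. Of these, 5 had lower and 2 higher means in *Dhh-Cre* mutants, 3 of them at least 2-fold lower and 1 at least 2-fold higher, with a median log2 ratio of -0.89. Of all genes 49.8% were lower, 3.58% at least 2-fold lower and 4.75% at least 2-fold higher. The median of 17 Sertoli cell markers, described below, was -1.54. *Myo7a*, the gene of the motor protein myosin VIIA, had means of 8.54 FPKM in *Dhh-Cre* mutants and 21.1 FPKM in controls (log2 ratio -1.30). *Tmie*, a gene of the hair cell channel complex, had 0.604 FPKM in mutants and 1.63 FPKM in controls. *Eps8*, which binds actin, had 2.34 FPKM in mutants and 4.86 FPKM in controls. *Cib2*, a calcium-binding partner of that channel complex, went the other way, with 3.66 FPKM in mutants and 1.76 FPKM in controls. The scaffold gene *Ush1g* (0.754 FPKM in mutants and 0.508 FPKM in controls) was low in both groups.

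Among type I classical cadherins, which carry much of the adhesion between epithelial cells, 4 genes were measured at P3. Means in *Dhh-Cre* mutants were lower for 3 of them, where 49.8% of all genes were lower, and higher for 1. Of the 3, *Cdh15* was almost level between mutants and controls. *Cdh2*, the gene of N-cadherin, had 2.16 FPKM in mutants and 4.08 FPKM in controls (log2 ratio -0.89). *Cdh3*, the gene of P-cadherin, had 12.3 FPKM in mutants and 19.1 FPKM in controls (log2 ratio -0.63). *Cdh1*, the gene of E-cadherin, which is found on ducts and also on undifferentiated spermatogonia, had 9.01 FPKM in mutants and 5.06 FPKM in controls (log2 ratio 0.82). *Cdh15*, the M-cadherin gene of muscle precursors, had 0.699 FPKM in mutants and 0.704 FPKM in controls. *Cdh4*, the gene of R-cadherin, was at 0.316 FPKM in mutants and 0.367 FPKM in controls, under the minimum.

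*Cdh3* and *Cdh1* lie close together on the plus strand of chromosome 8, at 106510891 to 106557297 and 106603351 to 106670246, with a gap of 46.1 kb that holds 1 other protein-coding gene. Their directions at P3 were opposite, so the balance between them differed. *Cdh3* was at 1.37 times the FPKM of *Cdh1* in *Dhh-Cre* mutants, against 3.78 times in controls. At P1 it was at 6.28 times that of *Cdh1* in *Nanos3-Cre* mutants, against 9.01 times in controls. Both genes had higher means in the P3 controls than in the P1 controls, *Cdh1* by 4.47 times and *Cdh3* by 1.88 times. The P3 and P1 controls differ in *Lrh1* genotype and in RNA input as well as in age, and these cannot be told apart.

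Of the type II classical cadherins 4 reached the minimum level at P3, and the highest of them, *Cdh5* and *Cdh11*, are known from tissue outside the tubules. *Cdh5*, the gene of VE-cadherin of endothelial cells, had 40.8 FPKM in *Dhh-Cre* mutants and 30.4 FPKM in controls at P3 (log2 ratio 0.42). *Cdh11*, a cadherin gene of mesenchyme, had 29.7 FPKM in mutants and 21.8 FPKM in controls (log2 ratio 0.45). The 2 genes kept nearly 1 ratio to each other, with *Cdh11* at 0.728 times the FPKM of *Cdh5* in mutants and 0.716 times in controls. *Cdh6*, named for the kidney, had 0.822 FPKM in mutants and 0.402 FPKM in controls (log2 ratio 0.88). *Cdh24* had 5.20 FPKM in mutants and 5.87 FPKM in controls (log2 ratio -0.17). The other 9 genes of this class, *Cdh7*, *Cdh8*, *Cdh9*, *Cdh10*, *Cdh12*, *Cdh18*, *Cdh19*, *Cdh20* and *Cdh22*, many of them known from the nervous system, stayed under 0.5 FPKM in every group. The highest value among them was that of *Cdh9* in *Nanos3-Cre* mutants, 0.248 FPKM. *Cdh19*, a gene of Schwann cell precursors, was at 0.190 FPKM in *Dhh-Cre* mutants and 0.014 FPKM in controls, while *Sox10*, which directs that lineage, was at 1.51 FPKM in mutants and 0.991 FPKM in controls.

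Of the cadherins with other domain plans, *Cdh16* and *Cdh17* encode relatives with 7 extracellular repeats. *Cdh16*, a cadherin gene of kidney tubules and other duct epithelia, had 16.7 FPKM in *Dhh-Cre* mutants and 6.59 FPKM in controls at P3 (log2 ratio 1.32). *Cdh17*, a cadherin gene of intestine and liver, had 0.280 FPKM in mutants and 0.721 FPKM in controls (log2 ratio -1.11). Its mean over both groups was barely above the minimum, so its ratio rests on low values. *Cdh13*, whose product is held in the membrane by a lipid anchor, had 0.478 FPKM in mutants and 0.284 FPKM in controls, and *Cdh26* stayed at or under 0.061 FPKM in every group.

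**Figure D2:**
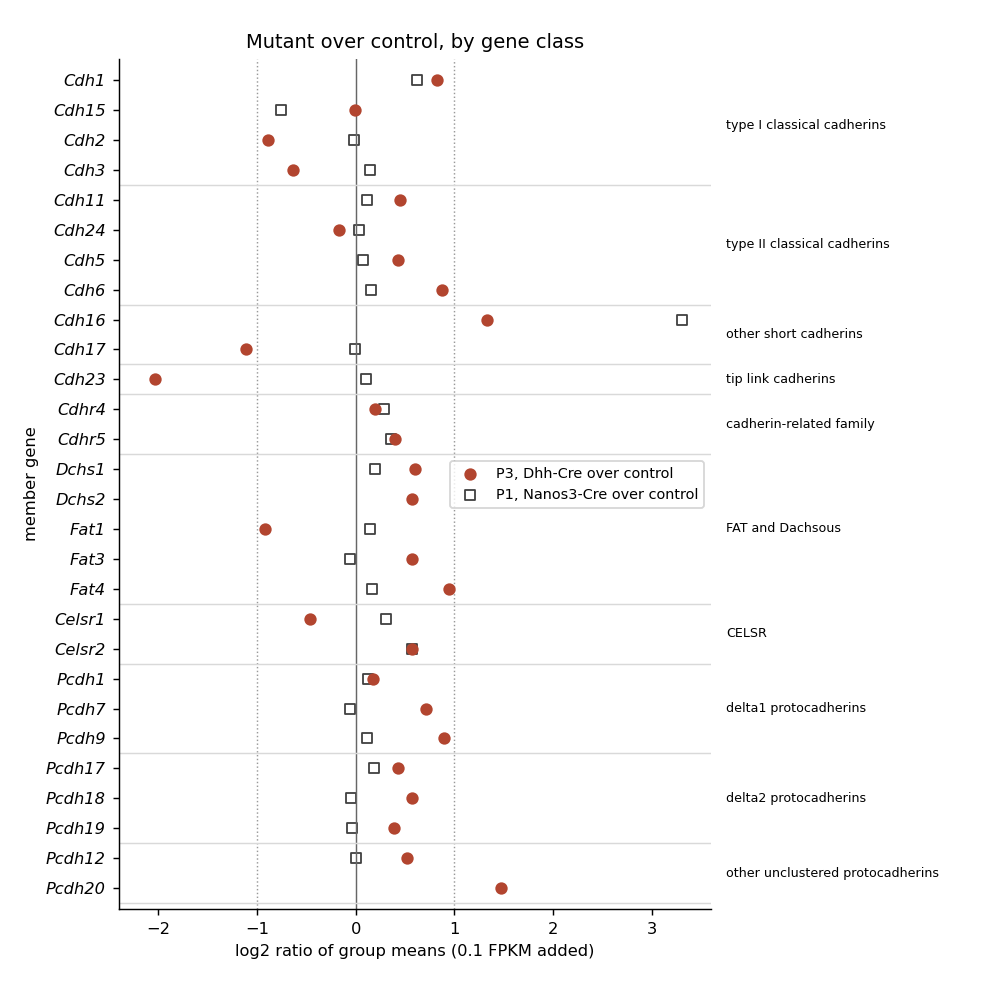
Log2 ratio of group means (0.1 FPKM added to each), mutant over control, for the members that reached the minimum level, by class. Filled circles are *Dhh-Cre* over control at P3 and open squares *Nanos3-Cre* over control at P1, with dotted lines at a 2-fold difference. At P3 *Cdh23* lies at -2.03 and *Pcdh20* at 1.47, while at P1 *Cdh16* lies at 3.30.

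The FAT and Dachsous genes held the largest difference in FPKM of the family at P3, that of *Fat1*. *Fat1*, the gene of a giant cadherin that bears on actin and cell contacts, had the highest mean of all 49 members in P3 controls. Its mean was 28.7 FPKM in *Dhh-Cre* mutants and 54.4 FPKM in controls (log2 ratio -0.92), and it made up 10.8% of the summed FPKM of the 49 members in mutants and 23.5% in controls. *Fat4*, the receptor of Dachsous, went the other way with 21.7 FPKM in mutants and 11.2 FPKM in controls (log2 ratio 0.95). *Dchs1*, the gene of its ligand, had 18.0 FPKM in mutants and 11.8 FPKM in controls (log2 ratio 0.61). *Fat1* was thus at 1.32 times the FPKM of *Fat4* in mutants and at 4.85 times in controls. In both P1 groups *Fat1* was near 1.8 times *Fat4* (1.76 in *Nanos3-Cre* mutants and 1.80 in controls). *Fat4* and *Dchs1* stayed close to each other in level, at a ratio of 1.21 in *Dhh-Cre* mutants and between 0.950 and 0.987 in the other 3 groups.

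The rest of this class was lower. *Fat3* had 5.19 FPKM in *Dhh-Cre* mutants and 3.46 FPKM in controls (log2 ratio 0.57), and *Dchs2* had 0.652 FPKM in mutants and 0.407 FPKM in controls. *Fat2* was at 0.314 FPKM in mutants and 0.124 FPKM in controls, under the minimum.

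CELSR proteins are cadherins with a receptor tail of 7 membrane spans that act in planar polarity. *Celsr1* had 3.53 FPKM in *Dhh-Cre* mutants and 4.89 FPKM in controls (log2 ratio -0.46), whereas *Celsr2* had 3.51 FPKM in mutants and 2.33 FPKM in controls (log2 ratio 0.57). The means of the pair were thus nearly equal in mutants. *Celsr3* stayed at or under 0.027 FPKM in every group. In a list of planar polarity partners, 17 of 18 symbols were found and 16 reached the minimum level at P3. Means were lower in mutants for 8 of them and higher for 8, around a median log2 ratio of -0.01. *Fzd3*, a receptor that works with CELSR proteins, had 11.0 FPKM in mutants and 18.7 FPKM in controls. *Lix1* had 1.97 FPKM in mutants and 0.841 FPKM in controls and was the only 1 of the 16 past a 2-fold difference.

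**Figure D3:**
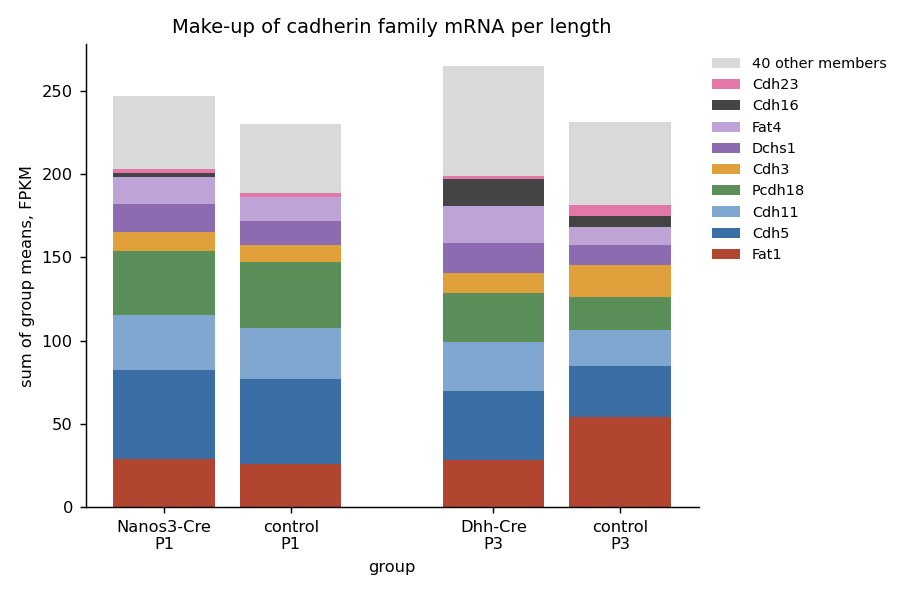
Group means in FPKM of the 49 members stacked for each group, with 9 members shown singly and the other 40 together. The sum was 265 FPKM in *Dhh-Cre* mutants and 231 FPKM in controls at P3, and 247 FPKM in *Nanos3-Cre* mutants and 230 FPKM in controls at P1, and the share of *Fat1* was largest in P3 controls.

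All 8 unclustered protocadherins that reached the minimum level had higher means in *Dhh-Cre* mutants than in controls at P3, where 50.2% of all genes did. Protocadherins bind weakly to their own kind and many are known from the sorting of neurons. In the delta1 class, *Pcdh9* had 7.79 FPKM in mutants and 4.16 FPKM in controls (log2 ratio 0.89), *Pcdh7* had 11.0 FPKM in mutants and 6.69 FPKM in controls (log2 ratio 0.71), and *Pcdh1* had 2.04 FPKM in mutants and 1.80 FPKM in controls (log2 ratio 0.18). In the delta2 class, *Pcdh18* was by far the highest, with 29.3 FPKM in mutants and 19.7 FPKM in controls (log2 ratio 0.57). *Pcdh17* had 0.914 FPKM in mutants and 0.655 FPKM in controls, and *Pcdh19*, the gene of a human epilepsy, had 1.08 FPKM in mutants and 0.804 FPKM in controls. *Pcdh10* was at 0.517 FPKM in mutants and 0.222 FPKM in controls, under the minimum for the mean of both.

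*Pcdh20* had the highest ratio of the family at P3, with 1.73 FPKM in *Dhh-Cre* mutants and 0.563 FPKM in controls (log2 ratio 1.47 with 0.1 FPKM added). At this low level the ratio depends on the added value. With 1 FPKM added it was 0.81, no longer past 2-fold and below those of *Cdh16* (1.22) and *Fat4* (0.90). *Pcdh12*, a protocadherin gene of endothelial cells, had 2.94 FPKM in mutants and 2.03 FPKM in controls (log2 ratio 0.51), near the ratio of *Cdh5*. *Pcdh8* and *Pcdh11x* stayed under 0.5 FPKM in every group, *Pcdh8* with 0.183 FPKM in mutants and 0.195 FPKM in controls and *Pcdh11x* with 0.355 FPKM in mutants and 0.147 FPKM in controls. *Pcdh8*, *Pcdh17*, *Pcdh20* and *Pcdh9* follow each other on chromosome 14 with at most 2 protein-coding genes between neighbours, but with gaps of 3926 to 4672 kb. Of these the 3 measured ones were higher in mutants, as was every measured unclustered protocadherin on any chromosome, where 50.2% of all genes were.

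The measured cadherin-related genes had higher means in *Dhh-Cre* mutants than in controls at P3. *Cdhr5*, whose product joins the tips of microvilli, had 2.67 FPKM in *Dhh-Cre* mutants and 2.01 FPKM in controls (log2 ratio 0.39), and *Cdhr4* had 1.51 FPKM in mutants and 1.31 FPKM in controls (log2 ratio 0.20). *Cdhr2*, the gene of the microvillus partner of CDHR5, stayed at or under 0.105 FPKM in every group. *Cdhr1* and *Cdhr3* were at 0.122 FPKM or less. *Cdhr4* overlaps 2 other protein-coding genes on its own strand in GENCODE M21 and *Cdh15* overlaps 1, so reads may be shared there.

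Markers of cell types differed in these same means. Of 17 Sertoli cell markers, 15 were at least 2-fold lower in *Dhh-Cre* mutants at P3, with a median log2 ratio of -1.54 and summed levels of 759 FPKM in mutants and 2123 FPKM in controls. The ratio of *Cdh23* (-2.03) lay below that median, and those of *Fat1* (-0.92), *Cdh2* (-0.89), *Cdh3* (-0.63) and *Celsr1* (-0.46) lay above it. In whole testes fewer cells of a type and less RNA per cell cannot be told apart. Genes of tissue around the tubules were higher. The median was 1.09 for 10 interstitial mesenchyme markers (sums of 2484 FPKM in mutants and 1141 FPKM in controls), 0.69 for 13 endothelial markers (81.6 FPKM in mutants and 54.0 FPKM in controls) and 1.29 for 7 mesothelium markers (112 FPKM in mutants and 46.3 FPKM in controls). *Cdh5* (0.42) and *Pcdh12* (0.51) lay below the endothelial median, and *Cdh11* (0.45) below that of mesenchyme. The part of these cell types in the ratios of the cadherins was not tested.

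**Figure D4:**
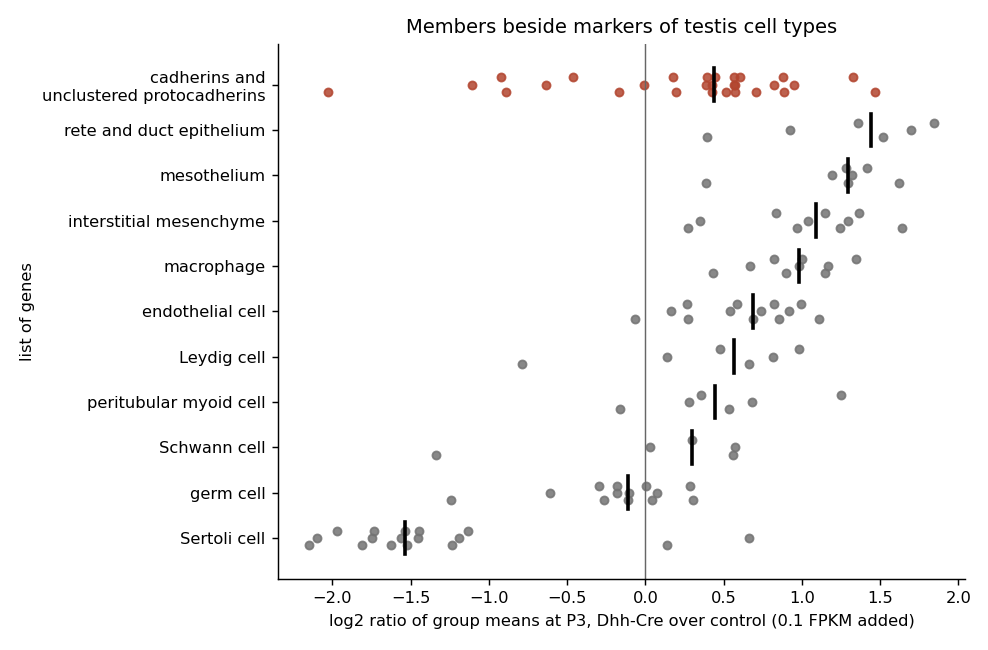
Log2 ratio of group means at P3, *Dhh-Cre* over control, for the 28 measured members (top line) and for the genes of each list of cell type markers, 1 point per gene with a bar at the median. Members spread between -2.03 and 1.47 around a median of 0.44, while Sertoli cell markers centre on -1.54 and rete and duct epithelium markers on 1.44.

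The other lists lay between these. Medians were 0.98 for 9 macrophage markers (sums of 164 FPKM in mutants and 79.5 FPKM in controls), 0.57 for 6 Leydig cell markers (545 FPKM in mutants and 333 FPKM in controls) and 0.45 for 6 peritubular myoid cell markers (300.4 FPKM in mutants and 224 FPKM in controls). For 13 germ cell markers, of which 5 were higher and 8 lower, the median was -0.11 (153 FPKM in mutants and 162 FPKM in controls). For 5 measured Schwann cell markers it was 0.30 (35.8 FPKM in mutants and 37.0 FPKM in controls).

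Partners of the classical cadherins had no shared direction. Of 17 measured genes of adherens junctions, 10 had lower and 7 higher means in *Dhh-Cre* mutants, with a median log2 ratio of -0.11. *Ctnnb1*, the gene of beta-catenin, had 175 FPKM in mutants and 186 FPKM in controls, and *Ctnna1*, the gene of alpha-catenin, 31.1 FPKM in mutants and 28.2 FPKM in controls. The genes at least 2-fold lower were *Ctnna2*, the alpha-catenin of neurons, with 1.85 FPKM in mutants and 5.41 FPKM in controls, and *Ctnnal1*, an alpha-catenin relative, with 5.68 FPKM in mutants and 12.5 FPKM in controls. *Nectin1*, an adhesion gene of these junctions, had 5.61 FPKM in mutants and 11.1 FPKM in controls. The highest ratios were those of *Nectin4*, with 0.961 FPKM in mutants and 0.534 FPKM in controls (log2 ratio 0.74), and *Lmo7*, with 1.34 FPKM in mutants and 0.812 FPKM in controls (log2 ratio 0.66). Of 13 desmosome genes, 5 reached the minimum level, with a median of 0.10. *Pkp3*, a plakophilin gene, was in mutants at 2.45 times its mean in controls (log2 ratio 1.15), and *Dsc2*, a desmosomal cadherin gene, had 1.88 FPKM in mutants and 2.81 FPKM in controls.

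At P1 most cadherins were at like levels in *Nanos3-Cre* mutants and controls. The largest differences on the log2 scale were those of *Cdh16*, *Cdh15*, *Cdh1* and *Celsr2*, all at low levels between 0.5 and 2 FPKM. The central range of all genes at that level, taken as above, was -1.22 to 1.15 at P1. *Cdh15* (-0.76), *Cdh1* (0.62) and *Celsr2* (0.57) lay inside this range, and *Cdh16* (3.30) lay above it. *Cdh15* reached the minimum level through the controls alone (0.416 FPKM in *Nanos3-Cre* mutants and 0.771 FPKM in controls). Of 26 members at the minimum level, 19 had a higher mean in *Nanos3-Cre* mutants, where 54.5% of all genes were higher, and 7 a lower one, where 45.4% were. Their median log2 ratio was 0.12, against 0.02 for all genes. Of the 7 lower ones, *Cdh2*, *Cdh17*, *Pcdh18* and *Pcdh19* turned to higher when both groups were scaled to the same sum, and *Pcdh12*, nominally higher, turned to lower when the median of all genes was subtracted. None of the 26 was at least 2-fold lower (1.39% of all 16121 genes were) and only *Cdh16* was at least 2-fold higher (1.15% of all genes were).

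*Cdh16* was at 2.24 FPKM in *Nanos3-Cre* mutants and at 0.138 FPKM in controls at P1, and it reached the minimum level through the mutants alone. Its log2 ratio was 3.30 with 0.1 FPKM added, 3.93 with 0.01 FPKM added and 1.51 with 1 FPKM added, so the size of the difference is not fixed by these means. No value per sample shows whether 1 testis or all 4 gave this mean. Markers of the rete and ducts, the tubes that carry sperm out of the testis, were higher in the same mutants. All 6 were above their controls at P1, with summed levels of 7.22 FPKM in *Nanos3-Cre* mutants and 3.34 FPKM in controls, and the 5 that reached the minimum level had a median log2 ratio of 0.99. *Cldn4*, a tight junction gene of epithelia, had 1.29 FPKM in mutants and 0.528 FPKM in controls, and its relative *Cldn3* had 1.42 FPKM in mutants and 0.694 FPKM in controls. The epithelial genes *Cldn8* (2.71 FPKM in mutants and 0.046 FPKM in controls) and *Ehf* (2.48 FPKM in mutants and 0.147 FPKM in controls), named after their values were seen, were also near 0 in controls. The authors' own test across the P1 samples called 4 genes, and *Cdh16*, *Cldn8* and *Ehf* were not among them.

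The same 6 markers were higher in *Dhh-Cre* mutants at P3, with a median log2 ratio of 1.44 and sums of 39.4 FPKM in mutants and 12.9 FPKM in controls. *Cdh16* had a ratio of 1.32 there. *Cdh1*, which is also a gene of such epithelia, had 1.80 FPKM in *Nanos3-Cre* mutants and 1.13 FPKM in controls at P1 (log2 ratio 0.62), beside its 0.82 at P3. In P3 controls *Cdh16* was at 6.59 FPKM, 47.8 times its level in P1 controls, which was near 0 (0.138 FPKM). These controls differ in *Lrh1* genotype and RNA input as well as in age, and these cannot be told apart. The amount of duct tissue taken with each testis is not stated in the labels or methods, and its part in the values of *Cdh16* and *Cdh1* was not tested.

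**Figure D5:**
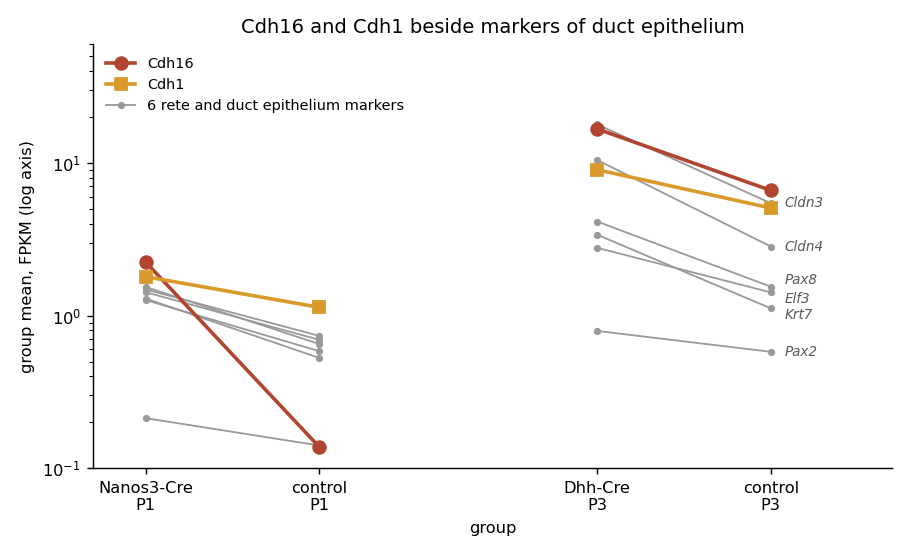
Mean FPKM (log axis) of *Cdh16*, *Cdh1* and 6 markers of rete and duct epithelium in the 4 groups, with lines joining the mutants to the controls of the same age. *Cdh16* lies at 2.24 FPKM in *Nanos3-Cre* mutants and 0.138 FPKM in P1 controls, and every gene drawn is higher in mutants than in controls at both ages.

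Of the other members at P1, *Cdh15* had 0.416 FPKM in *Nanos3-Cre* mutants and 0.771 FPKM in controls (log2 ratio -0.76), *Celsr2* had 1.59 FPKM in mutants and 1.04 FPKM in controls (log2 ratio 0.57), and *Celsr1* had 2.66 FPKM in mutants and 2.14 FPKM in controls (log2 ratio 0.30). *Cdhr5* had 2.16 FPKM in mutants and 1.66 FPKM in controls, and *Cdhr4* had 1.02 FPKM in mutants and 0.819 FPKM in controls. The 7 members with the highest levels had log2 ratios between -0.05 and 0.20 at P1. *Cdh5* had 53.6 FPKM in mutants and 50.8 FPKM in controls, *Pcdh18* had 38.3 FPKM in mutants and 39.6 FPKM in controls, *Cdh11* had 33.1 FPKM in mutants and 30.6 FPKM in controls, and *Fat1* had 28.7 FPKM in mutants and 26.0 FPKM in controls. *Dchs1* (16.9 FPKM in mutants and 14.7 FPKM in controls), *Fat4* (16.3 FPKM in mutants and 14.5 FPKM in controls) and *Cdh3* (11.3 FPKM in mutants and 10.2 FPKM in controls) were likewise near their controls. Sertoli cell markers had a median of -0.02 at P1. Of 13 germ cell markers, whose cells carry the deletion there, 12 were measured, 10 of them lower and 2 higher. Their median was -0.53, and the 13 summed to 37.1 FPKM in mutants and 56.4 FPKM in controls. Other cell types differed at P1 as well. All 9 macrophage markers were higher, with a median of 0.61 and sums of 140 FPKM in mutants and 88.3 FPKM in controls. Of 6 peritubular myoid cell markers 5 were lower, with a median of -0.49 and sums of 186 FPKM in mutants and 234 FPKM in controls. The part of these cell types in the P1 ratios of the cadherins was not tested.

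*Cdh5* was the highest member in *Nanos3-Cre* mutants and controls at P1 and in *Dhh-Cre* mutants at P3, and *Fat1*, number 4 in each of these, was the highest in P3 controls. *Cdh23* was number 22 of 49 in *Dhh-Cre* mutants and number 10 in P3 controls, and it was number 14 in both P1 groups. *Cdh16* was number 7 in *Dhh-Cre* mutants and number 9 in P3 controls, and number 16 in *Nanos3-Cre* mutants and number 32 in P1 controls. The 3 highest members held 37.7% of the summed FPKM of the family in *Dhh-Cre* mutants and 46.0% in P3 controls, and 50.7% in *Nanos3-Cre* mutants and 52.6% in P1 controls. Whether the ratios at P3 and P1 differ was not tested, since means give no error for either.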

How the data were processed

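mRNA libraries were made from whole testes of 16 mouse samples in 4 groups, placed by the titles in the labels, from 500 ng of total RNA for 3 samples and 400 ng for 1 in each P1 group and from 400 ng at P3. The authors trimmed reads (Trim Galore 0.6.0, cutadapt 1.18), checked them (FastQC 0.11.8), mapped them with STAR 2.7.2a to GRCm38 and counted them by strand on GENCODE M25 with RSubread. The deposited FPKM values are means over the 4 samples of a group. The library total behind them was not given in the sources used here, and no interval can be made without counts per sample. Their tables of called genes hold fold changes and adjusted p-values from DESeq2 and were not used. Only what the paper itself states of *Cdh23* at P3 and of the 4 genes called at P1 was taken up.

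Ratios of mean FPKM were computed as described above with Python 3.11.15, numpy 2.4.6 and pandas 2.3.3, and figures were drawn with matplotlib 3.10.9. The steps were tested on simulated data. A paired analysis, a test and the leaving out of samples were not run for want of values per sample. Named are the members at 0.5 FPKM or more in any group and the rest by their highest level, and of each other list up to 3 genes with the largest lower and higher ratios and 2 with the highest mean, with *Cldn8* and *Ehf* outside this rule. Members and lists were chosen with earlier results of these data known. Positions come from GENCODE M21 on GRCm38, which holds all 49 members, and the sequences around annotated starts from RefSeq on GRCm38.p6. The alternatives were other added values, minimum levels, scalings and fold limits.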

Additional observations from a re-analysis of the deposited data

How the results depend on the processing

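The values are group means, so no result carries an error. No paired analysis was possible because the columns hold 1 mean per group, and leaving out single samples was not run for the same reason. Adding 0.01 FPKM (which put *Cdh6* past 2-fold as well), scaling both groups to the same sum or subtracting the median of all genes left *Cdh23* and *Cdh17* at least 2-fold lower and *Cdh16* and *Pcdh20* at least 2-fold higher at P3. With 1 FPKM added the median of the members at P3 was 0.33, and 1 member was past 2-fold in each direction, *Cdh23* and *Cdh16*. The same 1 and 1 were left among members with a mean of at least 2 FPKM, of which 13 were higher by any amount. With no minimum level 36 members were higher and 13 lower at P3. At a 1.5-fold limit 5 were lower and 8 higher, and at a 3-fold limit 1 was lower (*Cdh23*) and 0 higher. At P1, with no minimum level, the median was 0.012 and 23 members were lower. Among members of at least 2 FPKM 4 were lower and 11 higher, and 0 were at least 2-fold higher, as *Cdh16* then fell under the minimum. When the minimum of 0.5 FPKM was asked of controls alone the count was likewise 0. Scaled to the same sum 3 were lower at P1, and at a 1.5-fold limit 1 was lower (*Cdh15*) and 2 higher.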

Other observations

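The clustered protocadherins, relatives of the family above that are encoded in 3 tandem arrays and are best known for giving neurons their surface identity, had mostly higher means in mutants at P3. All 21 measured genes of the beta cluster had higher means in *Dhh-Cre* mutants than in controls, with log2 ratios between 0.57 and 1.17 and a median of 0.91, and the summed levels of the whole cluster were 68.4 FPKM in mutants and 35.9 FPKM in controls. *Pcdhb20*, the highest of them in mutants, had 7.05 FPKM in mutants and 3.57 FPKM in controls, *Pcdhb17*, the highest in controls, had 6.28 FPKM in mutants and 3.71 FPKM in controls, and *Pcdhb3* had 3.04 FPKM in mutants and 1.29 FPKM in controls. In the gamma cluster 19 of 21 were higher, with a smaller median of 0.25 and sums of 52.0 FPKM in mutants and 44.3 FPKM in controls. *Pcdhgc3* alone gave 22.3 FPKM in mutants and 20.2 FPKM in controls. All 13 alpha cluster genes were under the minimum level, with a sum of 0.37 FPKM in mutants and 0.22 FPKM in controls.

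At P1 the beta cluster had a median of 0.02, with 11 of 21 genes higher in *Nanos3-Cre* mutants and sums of 52.5 FPKM in mutants and 51.3 FPKM in controls. The gamma cluster had a median of 0.17, with all 20 measured genes higher and sums of 54.6 FPKM in mutants and 47.1 FPKM in controls. Genes of a cluster are much alike in sequence and gamma genes share their last exons, so reads can be split among them and their ratios are not independent of each other.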
